A study of Mus musculus with 12 samples.

Results

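A set of 53 cell cycle and DNA replication genes was followed in the livers of cont., Atg7-KO and Atg7-KO;p62T352A mice. The genes were taken from the deposited count table by symbol, and all 53 were found among its 24411 genes. They were sorted by textbook function into 25 G1/S genes (G1 and G1/S cyclins and kinases, their transcription factors, origin licensing, DNA synthesis) and 28 G2/M genes (mitotic kinases, spindle checkpoint, kinetochore, spindle and chromosomes). The genes and classes were chosen with earlier results of these data known. In Atg7-KO livers, 45 of the 53 (84.9%) were called higher than in cont. livers and 3 (5.66%) lower, beside 21.6% and 22.1% of all tested genes. Each of the 28 G2/M genes was among those called higher. In Atg7-KO;p62T352A livers, 40 (75.5%) were called lower than in Atg7-KO livers and 1 (1.89%) was called higher, beside 26.2% and 24.7% of all tested genes.

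Adult hepatocytes are mostly quiescent and re-enter the cell cycle after injury or loss of liver mass. D-type cyclins with CDK4 release E2F transcription factors from pocket proteins, and E2F then drives the genes of origin licensing, nucleotide supply and DNA synthesis at the G1/S transition. The mitotic genes follow later, when the MuvB complex exchanges its repressive pocket protein partners for MYBL2 and FOXM1. MuvB binds a short promoter element named CHR, which often lies beside CCAAT boxes bound by NF-Y. The transcripts of most G2/M genes are therefore scarce in resting tissue and are used as marks of cells that have passed S phase.

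The cont. mice were Atg7 flox/flox, the Atg7-KO mice were Atg7 flox/flox;Alb-Cre, and the Atg7-KO;p62T352A mice carried in addition the T352A exchange in both copies of the endogenous p62 gene, Sqstm1. Each group held 3 mice of 3 months of age, the Alb-Cre line has a C57BL/6 background, and all 9 carried the floxed Atg7 alleles. Atg7 is needed for autophagosome formation, and p62 is an autophagy receptor that forms condensates, the p62 bodies. Alb-Cre is used to remove Atg7 in hepatocytes, and the RNA came from whole liver. Whether Atg7 was kept in each of the other liver cell types was not measured here. The T352A allele was made by prime editing in ES cells. A further 3 mice labelled flox/flox with p62T352A and without Cre were not analysed here. In bulk liver RNA, a larger share of cycling cells and more transcript per cell cannot be told apart, and neither can the cell types that carried these transcripts.

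Libraries held between 9671080 and 23285132 counts, and 13922 genes passed edgeR's filter on low counts, all 53 members included. Of the members, 20 had under 10 counts in at least 1 mouse. The targeted gene Atg7 had 44.2 to 55.4 normalized CPM (counts scaled to library size by TMM) in cont. mice, 9.57 to 12.0 in the Atg7-KO group and 27.4 to 29.7 in the Atg7-KO;p62T352A group, so that the last group, labelled with the same Cre, was called higher than Atg7-KO (adjusted p = 0.000164). Sqstm1 had 314 to 505, 871 to 960 and 497 to 626. The mouse numbered 1 of each genotype had 7 to 28 counts of the X-inactivation transcript Xist against 8578 to 18335 in the other 6 mice. Adjusted p-values below are Benjamini-Hochberg values of edgeR's quasi-likelihood test over all 13922 genes. A gene was called at an adjusted p under 0.05 and a fold change over 1.5.

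Promoters of these genes were compared first, since the G1/S and G2/M classes differ by the elements they are known for. RefSeq promoter windows of GRCm38.p6, from 250 bases before to 50 bases after a gene's start, were matched for 43 of the 53 members (46 windows). The CHR element (TTTGAA, either strand) lay in 16 of 23 G2/M windows (69.6%), in 3 of 23 G1/S windows (13%) and in 17.9% of all 32851 windows. A CCAAT box (CCAAT, either strand) lay in 78.3% of G2/M, 65.2% of G1/S and 37.4% of all windows. An E2F element (searched as TTGGCGC and its variants with the letters TTCCCGC and also TTCGCGC and also TTGCCGC, either strand) lay in 56.5% of G1/S, 17.4% of G2/M and 9.57% of all windows. The elements were searched one by one and can share letters where they meet. These matches are descriptions of the letters, not of binding.

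The 120 bases before the start are given for 4 G2/M genes with CHR and CCAAT letters, for 2 G1/S genes with E2F letters, and for Mcm10, a replication gene called lower in Atg7-KO livers and higher again in Atg7-KO;p62T352A livers. Capitals mark the elements named above, and the other strand of an element is in capitals too. The stretch of Cdk1 is chr10:69352913-69353032, minus strand. That of Cdc20 is chr4:118437344-118437463, minus strand. That of Top2a is chr11:99024190-99024309, minus strand. That of Ube2c is chr2:164769809-164769928, plus strand. For Mcm6 it is chr1:128359706-128359825, minus strand. For Rrm1 it is chr7:102441575-102441694, plus strand. For Mcm10 it is chr2:5012792-5012911, minus strand.
Cdk1: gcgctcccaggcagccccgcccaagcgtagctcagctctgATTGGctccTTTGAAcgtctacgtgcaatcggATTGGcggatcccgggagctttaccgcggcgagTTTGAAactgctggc
Cdc20: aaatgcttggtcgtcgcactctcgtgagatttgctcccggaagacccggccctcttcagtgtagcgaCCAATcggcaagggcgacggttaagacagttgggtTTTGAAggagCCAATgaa
Top2a: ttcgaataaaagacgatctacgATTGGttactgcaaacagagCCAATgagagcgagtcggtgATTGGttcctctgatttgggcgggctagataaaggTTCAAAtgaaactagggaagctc
Ube2c: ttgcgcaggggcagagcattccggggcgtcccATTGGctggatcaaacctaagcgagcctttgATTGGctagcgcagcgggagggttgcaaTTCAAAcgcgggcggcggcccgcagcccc
Mcm6: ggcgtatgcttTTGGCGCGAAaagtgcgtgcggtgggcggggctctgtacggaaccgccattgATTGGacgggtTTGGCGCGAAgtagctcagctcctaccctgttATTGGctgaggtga
Rrm1: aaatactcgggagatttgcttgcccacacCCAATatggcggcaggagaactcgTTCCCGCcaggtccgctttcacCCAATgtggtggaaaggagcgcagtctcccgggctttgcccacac
Mcm10: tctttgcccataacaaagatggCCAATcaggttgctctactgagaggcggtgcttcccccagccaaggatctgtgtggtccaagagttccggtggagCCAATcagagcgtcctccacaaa

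Cdk1 and Cdc20 each hold CHR letters close to the start with CCAAT letters upstream, and Cdk1 holds a further CHR beside its upstream CCAAT box. The Mcm6 stretch holds overlapping E2F matches at 2 places and 2 CCAAT boxes. In the Mcm10 stretch, 2 CCAAT boxes and neither CHR nor E2F letters were found, which says only that these letters are not in this window.

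Comparison of Atg7-KO with cont. livers asked how these genes differed after deletion of Atg7 in hepatocytes. The share of members called higher was 84.9% (45 of 53) beside 21.6% of all tested genes, and the share called lower was 5.66% beside 22.1%. The median log2 fold change of the members was 3.03 beside -0.03 for all tested genes. By class, 17 of 25 G1/S genes were higher and 3 were lower, with a median of 1.64, while 28 of 28 G2/M genes were higher, with a median of 3.51 and a range from 1.18 (Cenpa) to 4.90 (Ccnb1). The 3 members that were lower, Mcm10, Tk1 and Cdk2, all belong to the G1/S class.

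Comparison of Atg7-KO;p62T352A with Atg7-KO livers asked how these genes differed when the T352A exchange was added to the labelled deletion of Atg7. The groups also differed in the Atg7 transcript itself, which was 2.73-fold higher in Atg7-KO;p62T352A livers, so that the p62 exchange and the Atg7 transcript level cannot be told apart. At the protein level, the study's immunoblots found almost no ATG7 in Atg7-KO livers with or without the p62 mutation. The study read this as a block of autophagy. Of the 53 members, 40 (75.5%) were lower beside 26.2% of all tested genes, and 1 (1.89%), Mcm10, was higher beside 24.7%. The median log2 fold change was -1.81, against 0.00 for all tested genes. The G1/S class had 14 of 25 lower (median -1.56) and the G2/M class 26 of 28 (median -2.21). This comparison and the previous one share the Atg7-KO mice, so their values are given side by side and are not independent of each other.

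Atg7-KO;p62T352A livers were then set against cont. livers, to see which members still differed in mice labelled with both changes, in which the Atg7 transcript lay between those of cont. and Atg7-KO mice. Higher were 10 of 53 members (18.9%) beside 6.25% of all tested genes, and 0 were lower beside 5.34%. The 10 were Ccnd1, Rrm2, Ccna2, Ccnb2, Cdk1, Cdc20, Ube2c, Cenpe, Kif20a and Top2a, of which 8 are G2/M genes. By edgeR at an unadjusted p under 0.05, 21 members were higher and 3 were lower (Cdk2, Pcna, Tk1). Of all 13922 tested genes, 2133 were higher and 1787 lower at that threshold. The G1/S class had 5 of 25 higher and 3 lower there, and the G2/M class 16 of 28 higher and 0 lower. DESeq2 called 15 members higher and 2 lower (Cdk2, Tk1). The median log2 fold change was 0.33 for the G1/S and 1.44 for the G2/M class. These calls leaned on the spread of all 3 genotypes: in a fit of the 6 mice alone, 0 of the 48 members tested were called (15 higher and 2 lower at an unadjusted p under 0.05), and 50 genes in all were called. Leaving out cont. mouse 2, Atg7-KO mouse 2 or 3, or Atg7-KO;p62T352A mouse 2 or 3 lowered the count of higher members to 3, 4, 6, 3 and 1. Of the 10, Ube2c was called with any 1 mouse left out, while Rrm2 lost its call under 10 and Top2a under 9 alternatives and the others under 3 to 6.

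**Figure D1:**
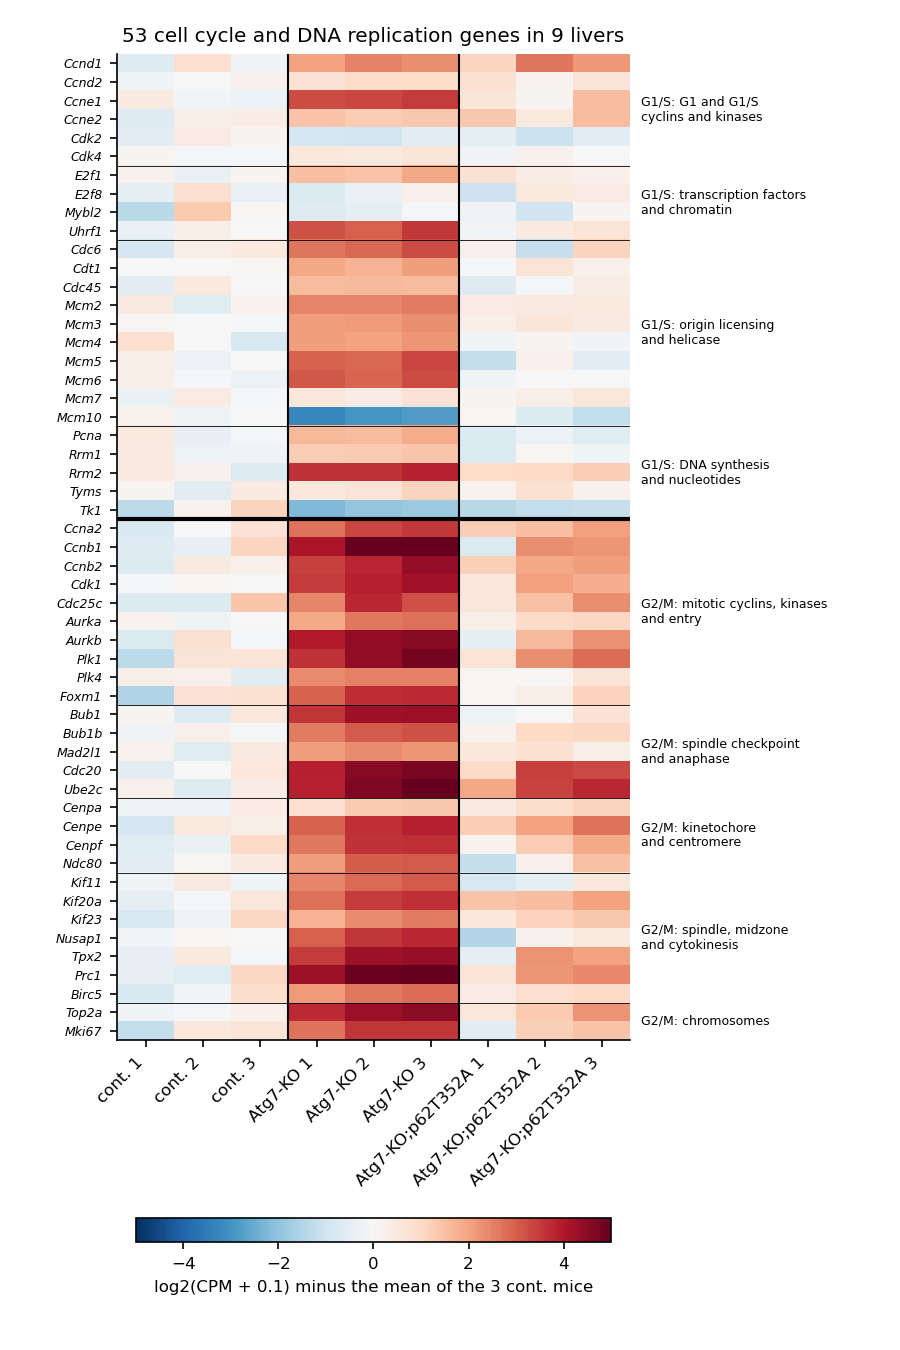
Each row is 1 of the 53 genes and each column 1 mouse, and the colour is log2(CPM + 0.1) minus the mean of the 3 cont. mice, with colours ending at 5 in either direction. Atg7-KO mice are red in nearly all rows but blue at Mcm10 and Tk1, and Atg7-KO;p62T352A mouse 1 is paler than mice 2 and 3 over most G2/M rows.

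**Figure D2:**
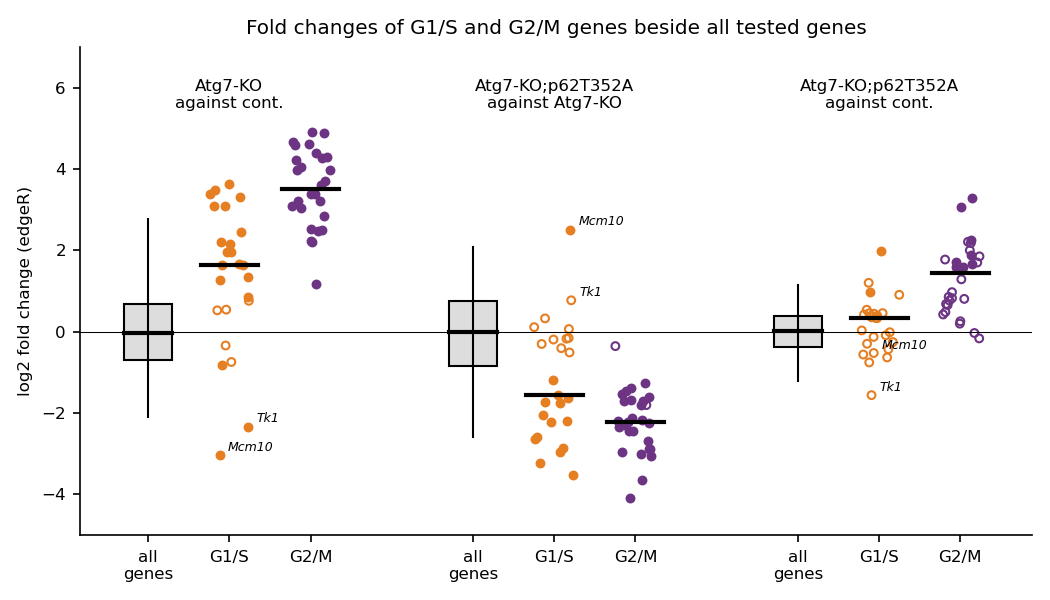
Points are the log2 fold changes of the 25 G1/S (orange) and 28 G2/M genes (purple) in each comparison, filled where called, with black bars at the class medians. Grey boxes give the interquartile range and the lines the central 90% of all 13922 tested genes. The G2/M median lies above the G1/S median in Atg7-KO against cont. livers (3.51 and 1.64) and below it in Atg7-KO;p62T352A against Atg7-KO (-2.21 and -1.56).

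The classes were also set against each other within each mouse, as the median log2 CPM of the G2/M genes minus that of the G1/S genes. This gap was -2.58, -1.85 and -1.60 in cont. mice 1, 2 and 3. It was -0.54, 0.03 and -0.05 in Atg7-KO mice, so that the G2/M genes were nearly level with the G1/S genes and none of these mice overlapped cont. mice. In Atg7-KO;p62T352A mice it was -1.80, -0.66 and -0.53: mouse 1 lay within the range of cont. mice, and mouse 3 just inside that of Atg7-KO mice. The difference between the class medians of log2 fold change was 1.87 in Atg7-KO against cont., -0.65 in Atg7-KO;p62T352A against Atg7-KO and 1.11 in Atg7-KO;p62T352A against cont. livers. In summed normalized CPM, the G2/M genes ranged over the 3 mice from 29.0 to 52.9 (cont.), from 273 to 471 (Atg7-KO) and from 54.0 to 126 (Atg7-KO;p62T352A), and the G1/S genes from 283 to 398, from 555 to 661 and from 309 to 448. These class values are descriptions with no test.

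**Figure D3:**
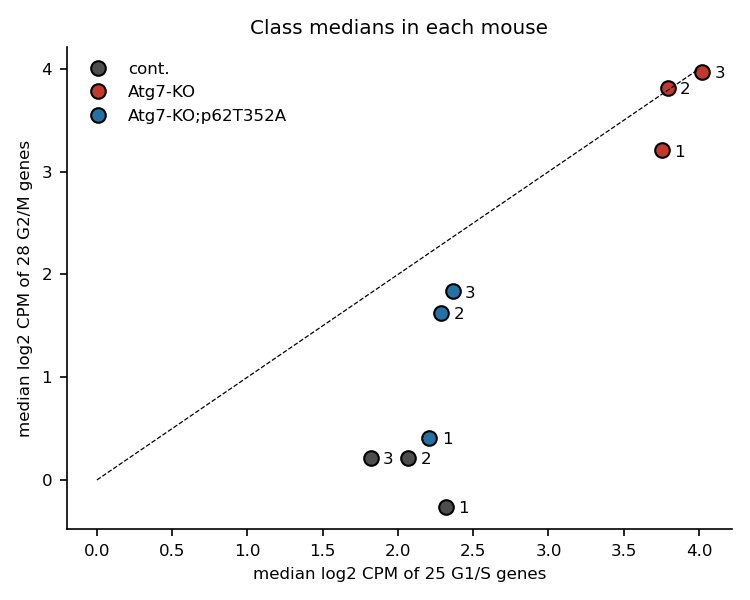
Each point is 1 mouse, with the median log2 CPM of the 25 G1/S genes on the horizontal and of the 28 G2/M genes on the vertical axis, numbers giving the mouse and the dashed line equality. Atg7-KO mice sit at the upper right near the line, and among Atg7-KO;p62T352A mice, mouse 1 lies beside the cont. mice while mice 2 and 3 lie above them on the vertical axis.

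Among mitotic cyclins, kinases and their regulators, 10 of 10 genes were higher in Atg7-KO than in cont. livers and 9 of 10 were lower in Atg7-KO;p62T352A than in Atg7-KO livers (medians 3.97 and -2.22). Cdk1, the kinase that drives entry into mitosis (chromosome 10, 69335146 to 69352938, GRCm38), had a normalized CPM of 1.60, 1.80 and 1.76 in cont., 20.4, 26.6 and 33.4 in Atg7-KO and 2.57, 7.50 and 6.33 in Atg7-KO;p62T352A mice 1, 2 and 3. The 3 groups of Cdk1 values did not overlap. Its log2 fold change was 3.96 ± 0.40 (SE, adjusted p = 8.82e-05) against cont., -2.29 ± 0.35 (adjusted p = 0.000652) for Atg7-KO;p62T352A against Atg7-KO and 1.67 ± 0.39 (adjusted p = 0.0255) against cont. Ccnb1, the B-type cyclin that activates CDK1, had 0.229, 0.284 and 0.989 in cont., 8.56, 16.1 and 16.6 in Atg7-KO and 0.214, 2.45 and 2.28 in Atg7-KO;p62T352A mice. Of all members, Ccnb1 had the largest rise in Atg7-KO (log2 fold change 4.90 ± 0.78, adjusted p = 0.000972), and 18.9% of its 75-base transcript stretches also occur in Ccnb1-ps, Gm12856, Gm4870, Gm7483 or Gm8416, all annotated as pseudogenes.

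Ccnb2, the other main B-type cyclin, had 0.458, 1.13 and 0.989 in cont., 9.67, 12.7 and 18.8 in Atg7-KO and 2.00, 3.36 and 3.72 in Atg7-KO;p62T352A mice, 3 groups that did not overlap. Ccna2, the cyclin of S and G2 phase, had 1.43, 2.55 and 4.18, then 17.1, 26.1 and 29.7, then 6.00, 7.21 and 10.6. In Atg7-KO;p62T352A against cont. livers, Ccnb2 differed by 1.88 ± 0.43 (adjusted p = 0.0245) and Ccna2 by 1.59 ± 0.39 (adjusted p = 0.0314) on the log2 scale. Of the Ccna2 exon sequence, 12.49% overlaps Exosc9, and the counting is not stated to use strand. Aurkb, a kinase of the chromosomal passenger complex, Plk1, which acts in spindle assembly, and Foxm1, the transcription factor of late cell cycle genes, changed by 4.59, 4.40 and 3.37 in Atg7-KO and by -2.89, -2.19 and -2.95 in Atg7-KO;p62T352A against Atg7-KO livers. Their levels in Atg7-KO;p62T352A mice were 0.214, 1.26 and 2.09 for Aurkb, 1.00, 3.29 and 4.63 for Plk1 and 1.07, 1.26 and 2.35 for Foxm1. Mouse 1 was the lowest each time.

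The remaining genes of this role, Aurka, Plk4 and Cdc25c, were also higher in Atg7-KO livers, Aurka by 2.51 and Plk4, which controls centriole duplication, by 2.50 on the log2 scale. Cdc25c, a phosphatase that activates CDK1, was the faintest member in cont. livers, with 0, 0 and 3 counts, against 101 counts summed over the 3 Atg7-KO mice. As a ratio per scaled library this is 18.3, with a 95% exact binomial interval of 6.07 to 90.0 that covers counting error only. In Atg7-KO;p62T352A livers Cdc25c had 0.143, 0.350 and 0.718 normalized CPM, and the difference of -1.80 ± 0.72 from Atg7-KO livers missed the threshold (adjusted p = 0.0582) but was called under 8 alternatives, DESeq2 (-1.85) and the replicate block (-1.93) among them, and without cont. mouse 1, cont. mouse 3 or Atg7-KO;p62T352A mouse 3 (-1.80, -1.80 and -2.51).

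All 5 genes of the spindle checkpoint and of anaphase were higher in Atg7-KO livers and all 5 were lower in Atg7-KO;p62T352A than in Atg7-KO livers (medians 4.29 and -1.72). The 2 that work with the anaphase-promoting complex were also higher in Atg7-KO;p62T352A than in cont. livers. Cdc20, its activator, had 0.401, 0.662 and 0.989 normalized CPM in cont., 11.1, 17.2 and 19.8 in Atg7-KO and 1.36, 7.92 and 7.18 in Atg7-KO;p62T352A mice. Ube2c, its ubiquitin-conjugating enzyme, had 0.802, 0.378 and 0.879, then 10.8, 18.8 and 24.0, then 2.78, 7.71 and 10.1. Neither gene overlapped between any pair of genotypes. In Atg7-KO;p62T352A against cont. livers, Cdc20 differed by 3.07 ± 0.66 (adjusted p = 0.0200) and Ube2c by 3.30 ± 0.56 (adjusted p = 0.00973), the 2 largest differences among the members. They were also among the G2/M genes that fell least from Atg7-KO to Atg7-KO;p62T352A livers, by -1.54 ± 0.52 and -1.37 ± 0.45, calls lost without Atg7-KO mouse 2 (-1.49 and -1.34) or 3 (-1.37 and -1.11) and, for Ube2c, also without Atg7-KO;p62T352A mouse 1 or 2 (-1.00 and -1.46). Of the Ube2c exon sequence, 22.77% overlaps Tnnc2 on the opposite strand.

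Bub1, a checkpoint kinase, had 0.401, 0.189 and 0.550 in cont., 5.37, 8.38 and 8.83 in Atg7-KO and 0.286, 0.350 and 0.653 in Atg7-KO;p62T352A mice, where it overlapped cont. mice. Its fall from Atg7-KO to Atg7-KO;p62T352A livers, by -4.10 ± 0.40 (adjusted p = 8.60e-05), was the largest of the 53 members. Bub1b and Mad2l1, which hold back the anaphase-promoting complex, changed by 3.09 and 2.20 in Atg7-KO and by -2.23 and -1.72 in Atg7-KO;p62T352A against Atg7-KO livers. Against cont. livers, Bub1 differed by 0.20 (95% interval from -0.94 to 1.33), Bub1b by 0.86 (from 0.09 to 1.62) and Mad2l1 by 0.48 (from -0.13 to 1.09), none of them called.

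Of 4 kinetochore and centromere genes, 4 were higher in Atg7-KO and 3 were lower in Atg7-KO;p62T352A than in Atg7-KO livers. Cenpe, a kinetochore motor, had 0.287, 0.851 and 0.769 normalized CPM in cont., 5.13, 8.51 and 10.1 in Atg7-KO and 1.5, 2.66 and 4.37 in Atg7-KO;p62T352A mice, and it was still higher than in cont. livers by 2.24 ± 0.54 (adjusted p = 0.0280). Its fall from Atg7-KO to Atg7-KO;p62T352A livers lost its call without Atg7-KO mouse 2 (-1.42) or 3 (-1.26). The same held without Atg7-KO;p62T352A mouse 1 (-1.16) or 2 (-1.42). Cenpf and Ndc80, both of the outer kinetochore, rose by 3.41 and 3.03 in Atg7-KO and fell by 2.12 and 2.35 in Atg7-KO;p62T352A against Atg7-KO livers. Cenpa, the histone H3 variant of centromeres, had 4.70, 4.73 and 7.25 in cont., 9.91, 13.5 and 14.1 in Atg7-KO and 7.43, 10.1 and 11.8 in Atg7-KO;p62T352A mice. Its rise of 1.18 ± 0.26 (adjusted p = 0.00540) was the smallest of the G2/M class, and the change of -0.35 in Atg7-KO;p62T352A against Atg7-KO livers was not called (95% interval from -0.92 to 0.21).

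For spindle, midzone and cytokinesis, 7 of 7 genes were higher in Atg7-KO and 7 of 7 were lower in Atg7-KO;p62T352A than in Atg7-KO livers (medians 3.38 and -2.45). Prc1, which bundles midzone microtubules, had 0.344, 0.284 and 1.10 in cont., 11.0, 18 and 19.0 in Atg7-KO and 0.857, 2.59 and 3.00 in Atg7-KO;p62T352A mice. Nusap1, a microtubule-binding protein of the spindle, had 0.860, 1.04 and 0.989, then 8.37, 12.6 and 14.2, then 0.286, 1.12 and 1.37, so that its values in Atg7-KO;p62T352A and cont. mice overlapped (log2 difference -0.03, 95% interval from -1.13 to 1.06). Kif20a, a cytokinesis kinesin, had 1.26, 1.70 and 2.75, then 12.6, 21.3 and 24.0, then 5.07, 5.53 and 7.51, and it remained higher than in cont. livers by 1.71 ± 0.35 (adjusted p = 0.0178). Of the Kif20a exon sequence, 29.3% overlaps Cdc23 on the opposite strand. Tpx2 and Kif11, needed for a bipolar spindle, rose by 4.23 and 2.84 in Atg7-KO and fell by 2.45 and 3.00 in Atg7-KO;p62T352A against Atg7-KO livers. The others, Kif23 and Birc5 (survivin), rose by 2.23 and 2.47. The fall of Kif23 from Atg7-KO to Atg7-KO;p62T352A livers lost its call under 5 alternatives (-1.05 to -1.44). These were the fits without Atg7-KO mouse 2 or 3 and those without any 1 Atg7-KO;p62T352A mouse.

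The 2 chromosome genes are the usual marks of proliferation in tissue. Mki67, which encodes the Ki-67 antigen (chromosome 7, 135689784 to 135716361), had 1.38, 4.63 and 5.17 in cont., 21.6, 39.1 and 39.4 in Atg7-KO and 2.14, 7.50 and 8.75 in Atg7-KO;p62T352A mice. It changed by 3.21 ± 0.58 (adjusted p = 0.00200) and by -2.44 ± 0.55 (adjusted p = 0.00484), and its values in Atg7-KO;p62T352A mice overlapped those of cont. mice (0.77 ± 0.57, adjusted p = 0.418, 95% interval from -0.52 to 2.05). Top2a, the topoisomerase of dividing cells (chromosome 11, 98992943 to 99024189), had 1.43, 1.51 and 1.98, then 22.6, 33.7 and 38.3, then 2.43, 4.20 and 8.09. Top2a did not overlap between groups and was higher in Atg7-KO;p62T352A than in cont. livers by 1.60 ± 0.43 (adjusted p = 0.0416).

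**Figure D4:**
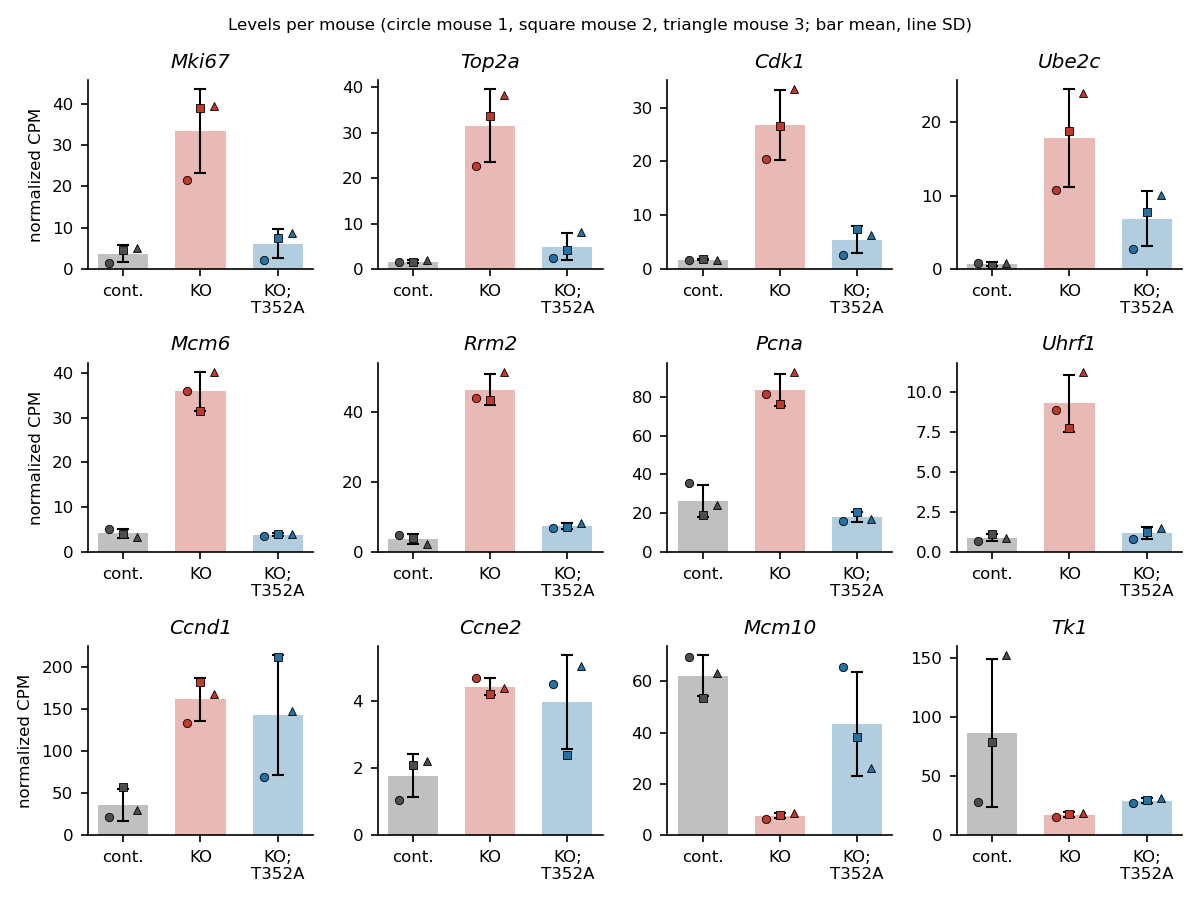
Each panel shows the normalized CPM of 1 gene in 9 mice, as points per mouse, bars for the mean and lines for the SD of 3 mice. Mki67 to Uhrf1 are high in Atg7-KO alone or mostly so, Ccnd1 and Ccne2 overlap between Atg7-KO and Atg7-KO;p62T352A mice, and Mcm10 and Tk1 are low in Atg7-KO mice.

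In the G1/S class, the genes of origin licensing and of the replicative helicase had 8 of 10 higher and 1 lower in Atg7-KO than in cont. livers, and 8 of 10 lower and 1 higher in Atg7-KO;p62T352A than in Atg7-KO livers (medians 2.09 and -1.90). Against cont. livers, none of the 10 was called in Atg7-KO;p62T352A livers by edgeR (1 higher at an unadjusted p under 0.05), and DESeq2 called none either. Mcm6, a subunit of the MCM2-7 helicase (chromosome 1, 128331590 to 128359664), had 5.21, 3.97 and 3.30 in cont., 36.0, 31.5 and 40.1 in Atg7-KO and 3.50, 4.06 and 3.98 in Atg7-KO;p62T352A mice. It changed by 3.09 ± 0.21 (adjusted p = 1.54e-05), by -3.22 ± 0.21 (adjusted p = 1.91e-05) and, against cont. livers, by -0.13 (95% interval from -0.60 to 0.34). Mcm5 had 2.64, 1.70 and 2.09, then 16.8, 16.3 and 22.3, then 0.857, 2.52 and 1.44. Its change in Atg7-KO;p62T352A against Atg7-KO livers, -3.52 ± 0.36 (adjusted p = 9.86e-05), was the largest fall of the G1/S class.

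Mcm2, Mcm3 and Mcm4 rose by 2.45, 2.21 and 1.95 in Atg7-KO and fell by 2.06, 1.75 and 2.21 in Atg7-KO;p62T352A against Atg7-KO livers. Mcm7, the remaining subunit, had 13.1, 21.9 and 15.9 in cont., 24.4, 21.4 and 27.3 in Atg7-KO and 18.4, 21.2 and 24.3 in Atg7-KO;p62T352A mice, overlapping in each comparison and called in none (0.52 ± 0.22 in Atg7-KO, adjusted p = 0.0725), though the difference from cont. livers was called without cont. mouse 2 (0.68) and with upper-quartile scaling (0.65). The Mcm7 exons overlap those of Ap4m1, Cops6, Mir25 and Mir93 over 12.58% of their length. Cdc6 and Cdt1, which load the helicase at origins, and Cdc45, which activates it, rose by 3.31, 1.97 and 1.64 and fell by 2.87, 1.63 and 1.73. Cdc6 was scarce, at 0.115, 0.378 and 0.440 in cont., 2.32, 2.71 and 3.58 in Atg7-KO and 0.357, 0.0700 and 0.718 in Atg7-KO;p62T352A mice.

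Mcm10, which joins the helicase at the start of replication and links it to DNA polymerase alpha (chromosome 2, 4989714 to 5012791, minus strand), was the licensing gene called lower in Atg7-KO livers and is described here because of its values. It had 69.6, 53.6 and 63.4 in cont., 6.38, 7.72 and 8.62 in Atg7-KO and 65.5, 38.3 and 26.0 in Atg7-KO;p62T352A mice. The Atg7-KO mice lay below all others, and the Atg7-KO;p62T352A mice overlapped cont. mice with a wide spread. Mcm10 fell by 3.04 ± 0.32 in Atg7-KO (adjusted p = 0.000126) and rose by 2.51 ± 0.32 in Atg7-KO;p62T352A against Atg7-KO livers (adjusted p = 0.000266). In cont. livers its level per kilobase of exon, 8.09 CPM, stood above that of Mcm6 (0.892) and Mcm7 (3.84), and in Atg7-KO livers (0.985) below both (7.69 and 5.51). No annotated exon of another gene overlaps the Mcm10 exons, and no 75-base stretch of its transcripts occurs in another gene.

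Among 5 genes of DNA synthesis and nucleotide supply, 3 were higher and 1 was lower when Atg7-KO was set against cont., and 3 were lower in Atg7-KO;p62T352A than in Atg7-KO livers. Rrm2, the regulated subunit of ribonucleotide reductase, had 4.76, 4.07 and 2.20 in cont., 44.0, 43.4 and 51.3 in Atg7-KO and 6.78, 7.07 and 8.35 in Atg7-KO;p62T352A mice, with no overlap between groups. Its rise of 3.63 ± 0.27 (adjusted p = 2.16e-05) was the largest of the G1/S class, and it stayed higher than in cont. livers by 0.99 ± 0.26 (adjusted p = 0.0366), a call lost under the replicate block (1.00), with DESeq2 size factors (0.93), in the fit of the 6 mice (0.96) and in 7 of the 9 fits without 1 mouse (0.89 to 1.04), all but those without cont. mouse 1 or 3. Rrm1, the other subunit of the enzyme, rose by 1.26 ± 0.26 and fell by 1.56 ± 0.26. Pcna, the sliding clamp of DNA polymerases, had 35.6, 19.1 and 24.5, then 81.4, 76.4 and 92.9, then 16.1, 20.7 and 17.0. It changed by 1.66 ± 0.24 (adjusted p = 0.000539) and by -2.22 ± 0.24 (adjusted p = 0.000126), and 13.85% of its transcript stretches are shared with the pseudogene Pcna-ps2.

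Tyms and Tk1 both supply thymidylate. Tyms, thymidylate synthase, had 7.28, 4.44 and 9.12 in cont. and 9.72, 10.8 and 14.7 in Atg7-KO mice, a difference of 0.76 ± 0.29 that missed the threshold (adjusted p = 0.0577) but was called under 5 alternatives, among them DESeq2 (0.73), upper-quartile scaling (0.87) and the fit without cont. mouse 3 (0.98). Tk1, the S phase thymidine kinase (chromosome 11, 117815526 to 117826092), had 28.2, 78.6 and 152 in cont., 14.8, 17.5 and 18.9 in Atg7-KO and 26.9, 29.4 and 31.4 in Atg7-KO;p62T352A mice. The cont. mice differed widely among themselves, and their lowest lay within the range of Atg7-KO;p62T352A mice. Tk1 fell by 2.33 ± 0.48 in Atg7-KO (adjusted p = 0.00374), and the differences of Atg7-KO;p62T352A livers from Atg7-KO (0.77 ± 0.46) and from cont. livers (-1.56 ± 0.47, adjusted p = 0.0589) were not called.

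The 6 G1 and G1/S cyclins and kinases moved least as a group in Atg7-KO;p62T352A against Atg7-KO livers, with 1 of 6 lower and a median of -0.24, while 4 of 6 were higher and 1 lower when Atg7-KO was set against cont. livers. Ccnd1, cyclin D1 (chromosome 7, 144929931 to 144939925), had 21.3, 57.2 and 29.6 in cont., 133, 182 and 168 in Atg7-KO and 69.5, 211 and 148 in Atg7-KO;p62T352A mice. Both groups labelled with Alb-Cre lay above all cont. mice and overlapped each other. Ccnd1 was higher by 2.16 ± 0.45 in Atg7-KO (adjusted p = 0.00389) and by 1.99 ± 0.45 in Atg7-KO;p62T352A (adjusted p = 0.0232) than in cont. livers, and the difference between them was -0.17 with a 95% interval from -1.13 to 0.78. The difference between Atg7-KO;p62T352A and cont. livers was not called without cont. mouse 3 (1.87) or without Atg7-KO;p62T352A mouse 2 (1.60) or 3 (1.97). It was also not called in the fit of these 2 groups alone (1.99). Of its exon sequence, 23.36% overlaps LTO1 on the opposite strand.

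Ccne1, an E-type cyclin, which activates CDK2 at the G1/S boundary, had 0.630, 0.378 and 0.330 in cont., 4.93, 5.26 and 5.89 in Atg7-KO and 0.714, 0.490 and 1.44 in Atg7-KO;p62T352A mice, with changes of 3.49 ± 0.42 (adjusted p = 0.000226) and -2.59 ± 0.38 (adjusted p = 0.000523). Ccne2, the other E-type cyclin, had 1.03, 2.08 and 2.20, then 4.69, 4.19 and 4.39, then 4.50, 2.38 and 5.03. It rose by 1.36 ± 0.36 in Atg7-KO (adjusted p = 0.0130), and the difference of Atg7-KO;p62T352A from Atg7-KO livers was -0.16 (95% interval from -0.91 to 0.60). Ccne2 overlaps Ints8 over 17.42% of its exons. Ccnd2 likewise rose in Atg7-KO (0.84 ± 0.20) and differed by -0.30 in Atg7-KO;p62T352A against Atg7-KO livers (95% interval from -0.75 to 0.15).

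Cdk2 had 11.1, 22.4 and 18.5 in cont., 9.00, 8.88 and 11.4 in Atg7-KO and 11.8, 7.78 and 11.1 in Atg7-KO;p62T352A mice. Its fall by 0.82 ± 0.27 in Atg7-KO (adjusted p = 0.0339) was lost under 9 of the alternatives, among them the leaving out of any 1 Atg7-KO mouse. Cdk4 passed the test in Atg7-KO but changed under 1.5-fold (0.54 ± 0.16, adjusted p = 0.0196), and came to 0.03 in Atg7-KO;p62T352A against cont. livers. Its rise in Atg7-KO was called under 5 alternatives, among them upper-quartile scaling (0.65) and the fit without cont. mouse 1 (0.61). In Atg7-KO;p62T352A against Atg7-KO livers it likewise passed the test but changed under 1.5-fold (-0.51 ± 0.16, adjusted p = 0.0214). There it was called lower under 4 alternatives.

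Of the 4 transcription and chromatin factors, 2 were higher in Atg7-KO and the same number were lower in Atg7-KO;p62T352A than in Atg7-KO livers. Uhrf1, which guides maintenance DNA methylation at replication forks, had 0.688, 1.13 and 0.879 in cont., 8.90, 7.77 and 11.3 in Atg7-KO and 0.785, 1.26 and 1.5 in Atg7-KO;p62T352A mice, with changes of 3.39 ± 0.32 (adjusted p = 7.00e-05) and -2.96 ± 0.31 (adjusted p = 0.000104). E2f1, an activator of G1/S genes, had 3.61, 2.36 and 3.41, then 8.90, 8.55 and 12.0, then 5.28, 3.99 and 3.66, and changed by 1.64 and -1.19. E2f8, a repressor E2F, and Mybl2, the activating partner of MuvB, were called in no comparison, but without cont. mouse 1 the fall of Mybl2 in Atg7-KO livers was called (-1.24). Mybl2 had 0.745, 5.11 and 2.09 in cont. and 1.26, 1.44 and 1.92 in Atg7-KO mice, a difference of -0.74 with a wide 95% interval from -2.06 to 0.57, and 17.14% of its transcript stretches occur in other genes.

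Per kilobase of exon, the highest means in cont. livers were those of Tk1 (16.6 CPM), Pcna (11.0) and Cdk4 (9.74), all of the G1/S class. The place of Tk1 rested on cont. mouse 3: the mice had 5.42, 15.1 and 29.3, and without mouse 3 the mean was 10.3, below that of Pcna (11.4). The place of Pcna rested on cont. mouse 1, as the mice had 14.8, 7.96 and 10.2. Without mouse 1 the Pcna mean was 9.085, below those of Cdk4 (9.25) and Ccnd1 (9.21). In Atg7-KO livers they were Pcna (34.8) and Ccnd1 (34.2), whose mice overlapped, and Rrm2 (16.7), with Ccnb2 (8.97) the first of the G2/M genes. In Atg7-KO;p62T352A livers they were Ccnd1 (30.4), Cdk4 (9.95) and Pcna (7.47). Cdc25c was the lowest in cont. (0.0223) and in Atg7-KO livers (0.293).

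Further genes of the same processes were counted from textbook lists that hold no member. Beside them, 21.6% of all tested genes were higher and 22.1% lower in Atg7-KO against cont. livers. In Atg7-KO;p62T352A against Atg7-KO livers, 24.7% of all tested genes were higher and 26.2% lower. Of 51 other mitosis genes tested, 45 were higher and 0 were lower in Atg7-KO than in cont. livers (edgeR; 0 lower also at an unadjusted p under 0.05), and 42 were lower and 1 was higher in Atg7-KO;p62T352A than in Atg7-KO livers. Their medians were 3.16 and -2.24. Ckap2l, a spindle protein, and Ska1, a kinetochore protein, had the largest fitted rises, with Ckap2l at 0.458, 0.189 and 0.330 in cont. and 6.82, 12.6 and 15.5 in Atg7-KO mice. The rise of Ska1 started from 0, 0 and 1 counts in cont. mice, against 18, 35 and 52 in Atg7-KO mice. Its difference in Atg7-KO;p62T352A against Atg7-KO livers was not called (-1.52 ± 0.75, adjusted p = 0.114). Of 31 other DNA replication genes tested, 16 were higher and 1 was lower in Atg7-KO livers, and 16 were lower and 2 were higher in Atg7-KO;p62T352A than in Atg7-KO livers (medians 0.80 and -0.98). Gins2, of the GINS complex, rose by 4.03, and Recql4, a helicase of replication initiation, was the one that fell (2.75, 4.54 and 7.36 in cont. against 0.725, 0.945 and 1.15 in Atg7-KO mice).

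Of 10 CDK inhibitors and pocket proteins tested, 6 (60%) were higher and 0 were lower in Atg7-KO than in cont. livers (edgeR; 1 lower at an unadjusted p under 0.05). The shares of all tested genes were 21.6% higher and 22.1% lower. Cdkn1a, the p53 target p21, had 36.5, 38.2 and 9.67 in cont., 98.4, 113 and 111 in Atg7-KO and 136, 110 and 113 in Atg7-KO;p62T352A mice. Like Ccnd1, it was higher than in cont. livers in both groups (1.93, adjusted p = 0.00460, and 2.08, adjusted p = 0.0157) and the difference between them was 0.15 (95% interval from -0.74 to 1.04). Cdkn1b (p27) and Cdkn1c (p57) were called in no comparison. Cdkn3, a CDK phosphatase, and Cdkn2b (p15) rose by 4.49 and 3.70 in Atg7-KO and fell by 1.95 and 3.84 in Atg7-KO;p62T352A against Atg7-KO livers. Of 13 other E2F, DP and MuvB genes, 4 (30.8%) were higher and 1 (7.69%) was lower in Atg7-KO livers, with E2f2 (1.30) and Tfdp2 (-0.83) at the ends. The share higher was not far from the 21.6% of all tested genes. Of 8 other cyclin, CDK and CDC25 genes, 3 (37.5%) were higher, among them the p53 target Ccng1 (1.79) and Ccng2 (1.55).

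Markers of some other liver cells moved with the members, and their part in these results was not tested. Summed macrophage, cholangiocyte, stellate cell and neutrophil markers were highest in Atg7-KO mice, whereas summed erythroid markers were lowest there. Ranges of the summed B and T cell markers overlapped between genotypes, but single genes differed. By edgeR calls, 3 of these 9 markers (33.3%) rose from cont. to Atg7-KO livers and 0 fell. At an unadjusted p under 0.05, 4 rose and 1 fell. Cd8a rose most, with 0.229, 0.284 and 0.440 normalized CPM in cont. and 4.01, 4.64 and 5.12 in Atg7-KO mice. In Atg7-KO;p62T352A mice Cd8a had 2.28, 0.700 and 2.02, called below Atg7-KO (-1.46) and above cont. livers (2.44). Endothelial sums were 254 to 318 (cont.), 259 to 270 (Atg7-KO) and 134 to 165 (Atg7-KO;p62T352A). Of all tested genes, 21.6% were higher and 22.1% lower in Atg7-KO against cont., and 26.2% were lower in Atg7-KO;p62T352A against Atg7-KO livers. In summed normalized CPM, 8 macrophage markers ranged from 304 to 425 (cont.), from 1258 to 1352 (Atg7-KO) and from 216 to 450 (Atg7-KO;p62T352A), with 7 of 8 higher in Atg7-KO and 7 of 8 lower in Atg7-KO;p62T352A than in Atg7-KO livers. In the same order of genotypes, the 6 cholangiocyte markers ranged from 33.4 to 51.3, from 826 to 1023 and from 181 to 266, and the 8 stellate cell markers from 125 to 145, from 663 to 895 and from 168 to 302. Most of the cholangiocyte sum was Spp1. It had 43.0, 24.4 and 33.9 in cont., 967, 874 and 771 in Atg7-KO and 135, 154 and 227 in Atg7-KO;p62T352A mice. Gene by gene, 5 of the 6 cholangiocyte markers were higher in Atg7-KO, and 4 were lower in Atg7-KO;p62T352A than in Atg7-KO livers. The 8 hepatocyte markers ranged from 75335 to 130950, from 40128 to 43088 and from 114580 to 133520, with 6 lower in Atg7-KO. Of 6 endothelial markers, 3 were higher and 1 was lower in Atg7-KO, and 4 were lower in Atg7-KO;p62T352A than in cont. livers (5.34% of all tested genes). The summed values were 9.34 to 20.2, 18.1 to 24.2 and 10.7 to 18.2 for B and T cell, 1.87 to 2.27, 5.01 to 9.62 and 2.55 to 3.29 for neutrophil, and 526 to 1126, 315 to 378 and 561 to 895 for erythroid markers. In Atg7-KO;p62T352A against cont. livers, 3 of 6 cholangiocyte markers were higher, beside 6.25% of all tested genes. There, 0 of 8 macrophage markers were called in either direction (edgeR; 1 higher at an unadjusted p under 0.05).

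**Figure D5:**
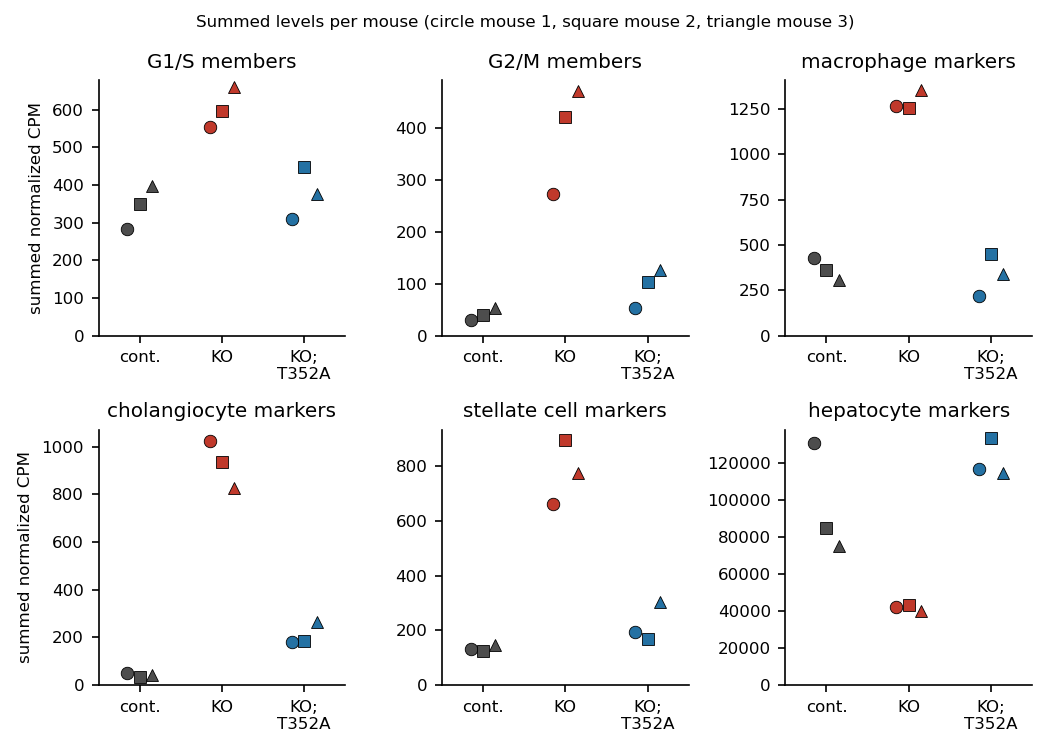
Each panel sums the normalized CPM of 1 gene list in each of 9 mice, with axes from 0. G2/M genes and the macrophage, cholangiocyte and stellate cell markers are highest in the 3 Atg7-KO mice, where hepatocyte markers are lowest (40128 to 43088), and mouse 1 (circle) has the lowest G2/M sum of its genotype each time.

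The G2/M genes also varied within genotypes in 1 direction. Mouse 1 was the lowest of its genotype for 28 of 28 G2/M genes in Atg7-KO, 26 of 28 in Atg7-KO;p62T352A and 21 of 28 in cont. mice, where the same mice were lowest for 39.5%, 30.3% and 44.5% of all tested genes. For G1/S genes the counts were 12, 17 and 11 of 25. These are the mice with few Xist counts, so that the mouse number and the sex-linked difference cannot be told apart, and the part of either in the G2/M levels was not tested. Without the mice numbered 1, 46 members were higher in Atg7-KO than in cont. livers, 41 were lower in Atg7-KO;p62T352A than in Atg7-KO livers, and 18 were higher and 3 lower (Cdk2, Mcm10, Tk1) in Atg7-KO;p62T352A than in cont. livers, with Mki67, Plk1 and Aurkb now among those higher.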

How the data were processed

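Poly(A) RNA of whole liver from 9 mice (3 genotypes, 3 mice each) was analysed. The values deposited by the authors are expected counts of RSEM, obtained from single-end reads with Trim Galore and STAR on mm10, and they are not scaled. Tool versions, the annotation and the use of strand are not given in the sources used here. The study's methods name TRIzol for extraction and the labels an RNeasy kit. Labels of 3 p62T352A mice had no column in this table, and these mice were not analysed here.

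Expected counts were rounded to whole numbers. Genes were kept by filterByExpr, scaled by TMM and fitted over 3 genotypes in 1 quasi-likelihood model with edgeR 4.0.16 in R 4.3.3. Standard errors and 95% intervals were computed from each gene's F statistic and its degrees of freedom. DESeq2 1.42.0 was an alternative. Calls needed an FDR under 0.05 and a fold change over 1.5. Per-mouse values are CPM scaled by TMM, and class medians use log2 CPM with a prior count of 2. The steps were tested on simulated data. Mice of a genotype are separate animals and differed beyond counting noise.

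The members, classes and gene lists were chosen with earlier results of these data known. Mouse by mouse values were given for members called in Atg7-KO;p62T352A against cont. livers, for up to 3 called members per role with the largest changes (mean CPM of at least 0.2), and for Mki67, Top2a, Pcna, Ccnd1 and Cdk1. Of each other list, up to 2 called genes in each direction were eligible, with Cdkn1a, Cdkn1b and Cdkn1c. Further members, such as Mcm10, Mcm7, Cenpa, Cdk2, Tyms and Mybl2, were named after their values were seen. Exon positions and lengths are from GENCODE M21 (GRCm38), and shared sequence was counted over 75-base transcript stretches. Alternatives were other normalizations and filters, a replicate block, FDR alone, fits of 2 genotypes, the mice numbered 1 left out, each mouse left out and, for class medians, other class assignments. Numbers of mice limit the precision, and counting intervals cover counting error only.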

Additional observations from a re-analysis of the deposited data

How the results depend on the processing

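In the 2 comparisons with Atg7-KO livers, the counts of members called kept within 1.5 times of the main value under all alternatives run but these. With at least 10 counts in every mouse, 33 members were tested, of which 27 were higher in Atg7-KO, 22 were lower in Atg7-KO;p62T352A against Atg7-KO and 6 were higher in Atg7-KO;p62T352A against cont. livers, and the difference between the class medians in Atg7-KO fell from 1.87 to 1.34, a filter that leaves 11 of 28 G2/M genes. With only the 2 groups compared, 2 members were higher in Atg7-KO;p62T352A against Atg7-KO and 0 in Atg7-KO;p62T352A against cont. livers, and without cont. mouse 1 there were also 2 in the former. Without the mice numbered 1, 18 were higher and 3 were lower in the last comparison, where DESeq2 gave 2 lower and no filter gave 1 lower.

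Leaving out 1 mouse at a time gave 45 to 46 members higher and 2 to 4 lower in Atg7-KO against cont., 1 to 2 higher and 36 to 41 lower in Atg7-KO;p62T352A against Atg7-KO, and 1 to 14 higher and 0 to 2 lower in Atg7-KO;p62T352A against cont. livers. The differences between class medians then ranged from 1.38 to 2.18, from -0.92 to -0.50 and from 0.87 to 1.40. Tk1 and Cdk2 were the 2 called lower in the last comparison without cont. mouse 1, and Tk1 was the added gene called higher in Atg7-KO;p62T352A against Atg7-KO livers. No called member changed sign under any alternative.

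The labels tie same-numbered mice by the number alone. Their deviations correlated from 0.14 to 0.27 for mice numbered 1, which also share few Xist counts, from -0.20 to 0.093 for mice numbered 2 and from 0.18 to 0.32 for mice numbered 3, so that not every pair exceeded 0.1, and 6 of 9 mice correlated best with a mouse of their own number. A replicate block gave 45 higher and 2 lower in Atg7-KO, 1 higher and 41 lower in Atg7-KO;p62T352A against Atg7-KO, and 11 higher (Plk1 and Prc1 added, Rrm2 lost) and 0 lower in Atg7-KO;p62T352A against cont. livers, with differences between class medians of 1.84, -0.69 and 1.00. Upper-quartile scaling shifted the median of all genes by 0.11 in Atg7-KO against cont. and by -0.14 in Atg7-KO;p62T352A against Atg7-KO livers, and 56.6% and 41.2% of its calls were higher.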
